A study of Mus musculus with 6 samples.

Results

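The cytosolic ribosomal protein genes encode the protein parts of the 60S and 40S subunits of the ribosome. They were taken as the protein-coding genes whose name begins with Rpl or Rps followed by a digit, together with Rplp0, Rplp1, Rplp2 and Rpsa. The Rps6k kinases and names marked as pseudogenes were left out. This gave 87 of the 55487 genes in the table, of which 84 had enough reads to be among the 15787 genes tested. The other 3 were Rpl3l, Rpl10l and Rps23rg1. The name rule also took in Rps19bp1, which binds RPS19 but is not a subunit, and the retrogenes Rps27rt and Rps23rg1, whereas Fau and Rack1 encode ribosomal proteins under other names and were not members.

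Cells were sorted from the cortex of 6 female mice, all 20 months old, as live, CD11b-positive and intermediate for CD45, a gate used for microglia, the resident macrophages of the brain. The 3 controls were Atg7-fl/fl, and the 3 knockouts were Atg7-fl/fl with the Cx3cr1-CreERT2 allele. Atg7 encodes an enzyme needed to build autophagosomes, and both groups carry its floxed alleles. As the controls had no Cre, an effect of the Cre allele and an effect of losing Atg7 cannot be told apart. CreERT2 is a form of Cre that acts after tamoxifen, and the sources used here do not give the dosing of the mice. Cx3cr1 is active in microglia, in macrophages at the borders of the brain and in some blood monocytes, so the allele is not restricted to microglia.

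Ribosomal proteins are made in nearly equal amounts and assembled with ribosomal RNA in the nucleolus, and each mature ribosome holds 1 copy of most of them. Their mRNAs begin with a cytosine followed by an unbroken run of pyrimidines, the terminal oligopyrimidine or TOP motif, through which the kinase mTORC1 and the RNA-binding protein LARP1 set their translation and stability together. Ribosomes are also taken up and degraded by autophagy, which has been described in yeast and in human cells. The question addressed here was whether the mRNAs of these genes differed between cells of the Atg7 knockout mice and of the controls.

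The start of these genes carries the motif by which their mRNAs are regulated as a group, so a few annotated starts are shown. Each line gives the 40 bases before the start and the first 15 bases of the transcript, from RefSeq for GRCm38.p6, on the strand of the gene. Capitals mark the pyrimidine run that begins with a C at the start; in Rps2 that C stands alone, and Rpl10, with no C there, is in lower case throughout.
Rpl14 (chr9:120571477-120571531, plus strand): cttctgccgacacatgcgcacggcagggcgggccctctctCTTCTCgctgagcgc
Rpl38 (chr11:114668540-114668594, plus strand): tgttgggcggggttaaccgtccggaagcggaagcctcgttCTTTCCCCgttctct
Rplp2 (chr7:141447611-141447665, plus strand): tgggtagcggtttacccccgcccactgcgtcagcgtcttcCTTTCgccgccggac
Rps6 (chr4:86857353-86857407, minus strand): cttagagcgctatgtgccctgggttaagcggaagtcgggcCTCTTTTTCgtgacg
Rps21 (chr2:180257339-180257393, plus strand): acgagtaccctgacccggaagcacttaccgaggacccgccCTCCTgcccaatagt
Rps27 (chr3:90213634-90213688, minus strand): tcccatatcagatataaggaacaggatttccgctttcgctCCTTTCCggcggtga
Rps2 (chr17:24720023-24720077, plus strand): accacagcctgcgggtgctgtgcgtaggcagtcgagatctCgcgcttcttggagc
Rpl10 (chrX:74270776-74270830, plus strand): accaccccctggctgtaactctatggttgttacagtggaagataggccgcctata

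A start was available for 67 of the 87 members. The annotated start was a C followed by at least 4 further pyrimidines in 14 of these members (20.9%), against 3.01% of 27025 genes. Annotated starts can lie a few bases from the base used in the cell, and a run of this kind within 10 bases before to 15 bases after the start was present in 61.2% of the members and 34.4% of all genes. The letters CCGGAAG, the core bound by ETS factors such as GABP, occurred on either strand of the 300-base window in 38.8% of the members and 9.93% of all genes, and they can be read in the Rpl38 line above. AAGATGGC, the core of the YY1 motif, was found in 8.96% and 3.19% of the same sets. TATAAA, searched on the strand of the gene from 40 bases before to 15 bases before the start, stood in 1.49% of the members and 2.41% of all genes. These matches describe the letters alone.

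Depth was very uneven. The 4 deep libraries held 21282335 to 39389527 reads, and control 3 and knockout 2, called the shallow libraries here, held 1254380 and 3789208. A floor of 3 reads was worth 0.0789 to 2.36 CPM (reads scaled to a common library size, with TMM factors). Atg7 was at 65.7, 66.4 and 56.6 CPM (controls) against 25.0, 26.5 and 23.7 CPM (knockouts), which did not overlap. All 10 microglial markers were measured, and their summed level was 57966.8 to 63140.3 CPM in the controls and 45437.8 to 50197.6 CPM in the knockouts, with Cx3cr1, the locus that carries Cre, the 1 marker called. The summed markers of border macrophages spanned 16.3 to 91.2 CPM in the controls and 66.5 to 263 CPM in the knockouts, and those of neutrophils 41.9 to 372 CPM and 124 to 1720 CPM, with no marker of either list at 0 throughout. Knockout 1 held the highest level of both lists. Their part in the results on ribosomal protein genes was not tested. In bulk samples, fewer cells of a type and less RNA per cell cannot be told apart.

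Ribosomal protein mRNAs took a larger part of the reads in the knockout libraries, and the libraries at the ends of the order were the shallow ones. The members held 2.37%, 2.39% and 1.76% of all reads (controls 1 to 3) against 2.52%, 3.09% and 2.59% (knockouts 1 to 3). Every knockout exceeded every control in this share. The group values were 2.17% ± 0.357 (SD, n = 3) in the controls and 2.73% ± 0.313 (SD, n = 3) in the knockouts. The exact binomial 95% intervals were narrow even in control 3 (1.74% to 1.79%) and cover counting error only. On the TMM scale the summed level was 24518.5, 24965.9 and 17377.5 CPM for controls against 24663.4, 30403.5 and 25584.7 CPM for knockouts. On this scale the groups overlapped, since knockout 1 lay between controls 1 and 2.

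**Figure D1:**
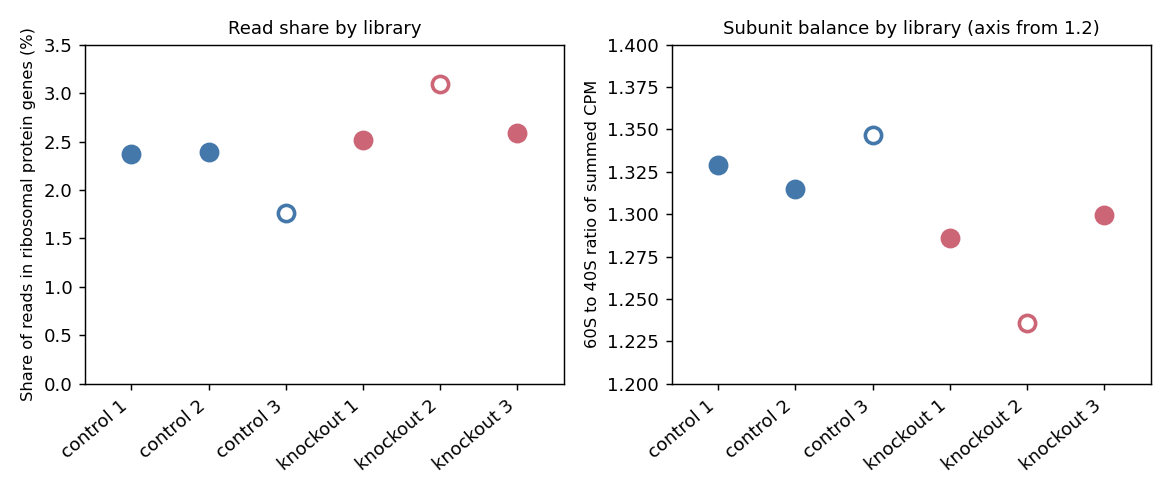
The left panel plots the share of reads (%) in ribosomal protein genes and the right panel the ratio of summed 60S to summed 40S CPM, for each library on the horizontal axis, with controls in blue, knockouts in red and the shallow libraries as open circles. Control 3 (1.76%) and knockout 2 (3.09%) are the lowest and highest shares, and the ratio, on an axis that starts at 1.2, is 1.31 to 1.35 in controls and 1.24 to 1.30 in knockouts.

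The members differed widely in level. Per kilobase of the principal transcript, the 77 members with a mean of at least 20 CPM ranged from 29.3 to 1339.8 CPM per kb, with a median of 284 CPM per kb. Rps9, a protein of the 40S body, was highest at 1339.8 CPM per kb, followed by Rps29 at 1160 and Rpl13 at 1157 CPM per kb. By CPM without length, Rps9, Rpl3 and Rpl13 were among the highest. At the low end, Rpl24 stood at 3.27, Rpl13a at 9.43 and Rps10 at 1.62 CPM per kb. All 3 encode core subunits, and most of their exonic bases are shared with another annotated gene (71.5% for Rpl24, 59.3% for Rpl13a and 63.6% for Rps10). Reads that fall in shared exons may not have been counted for these genes, so their levels may be too low. Other members with over 50% of their exonic bases overlapped were not at the low end: Rpl35 stood at 155, Rpl30 at 139, Rps25 at 346 and Rpl23a at 58.9 CPM per kb. Their overlaps are all with genes on the opposite strand. For Rpl24, Rpl13a and Rps10 the gene with the largest overlap is on the same strand. The part of strand in these levels was not tested. Gm28037 and Gm45713, which overlap Rpl24 and Rpl13a, were at 0 reads in every library. Across the 84 members tested, log2 CPM per kb was set against the share of exonic bases overlapped on either strand. The Pearson correlation was -0.48 and the Spearman correlation -0.38. With the share of 50-base stretches found in other genes they were 0.19 and 0.15. These are correlations across genes that share libraries and counting, given as a description.

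**Figure D2:**
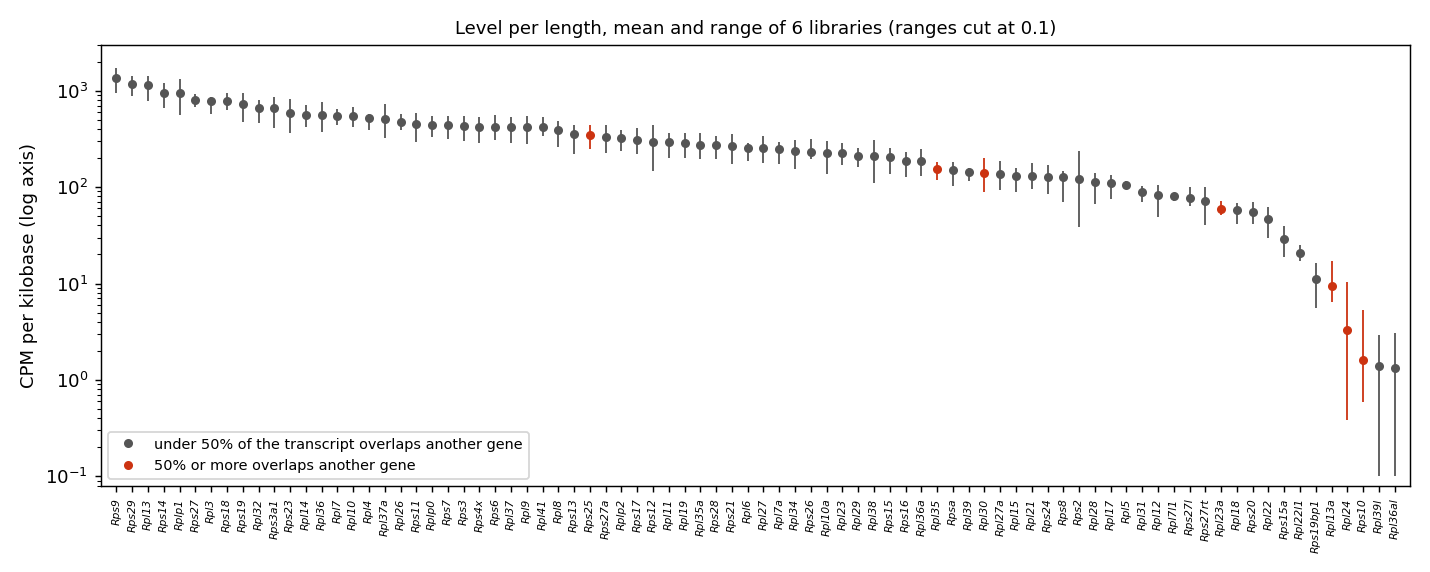
Points give the mean level of 82 tested members in CPM per kilobase on a log axis. Lines give the range over 6 libraries and are ended at 0.1. Red marks genes with at least 50% of their exonic bases in another annotated gene, on either strand. Levels run from 1339.8 for Rps9 to 1.33 for Rpl36al, and Rpl13a, Rpl24 and Rps10 are among the red points at the low end.

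No member was called in the comparison of knockouts with controls. By edgeR's quasi-likelihood test, adjusted over all 15787 genes, 0 of 84 members passed an adjusted p of 0.05 in either direction, where 7 genes in all (0.0443%) did. The smallest adjusted p among the members was 0.649, for Rplp1. Most fold changes nevertheless had the same sign. A log2 fold change above 0, meaning higher in the knockouts, was found for 75 of the 84, against 52.5% of all genes, and 9 were below 0. The median was 0.30, and that of all genes tested was 0.02. At an unadjusted p under 0.05, 20 of 84 members (23.8%) were higher, against 2.34% of all genes, and 0 were lower, against 1.98%. In 31 of 84 (36.9%) every knockout library lay above every control library, against 6.59% of all genes. The reverse held for 0 members and 4.47% of genes. Members vary together across libraries, so these counts are not 84 separate observations.

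The shift was larger in the shallow libraries than in the deep ones. Control 3 was the lowest of all 6 libraries for 76 of the 84 members, against 40.7% of all genes, and knockout 2 was the highest for 64, against 17.7%. Both held at once for 62 members, against 10.3% of genes. The median member was lower in control 3 than in the mean of controls 1 and 2 by a log2 difference of -0.50, where the median gene was at -0.19. In knockout 2 it was higher than in knockouts 1 and 3 by 0.28, where the median gene was at -0.04. Knockout 2 over control 3 alone gave a median log2 ratio of 0.85 with 78 of 84 members above 0. For all genes the median was 0.09, with 53.9% above 0. Between the 2 deep knockouts and the 2 deep controls the median was 0.07 with 60 of 84 members above 0. For all genes it was 0.01, with 51.7% above 0. Both deep knockouts lay above both deep controls for 33 of 84 members (39.3%), against 18.2% of all genes, and below them for 6 (7.14%), against 18.2%.

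**Figure D3:**
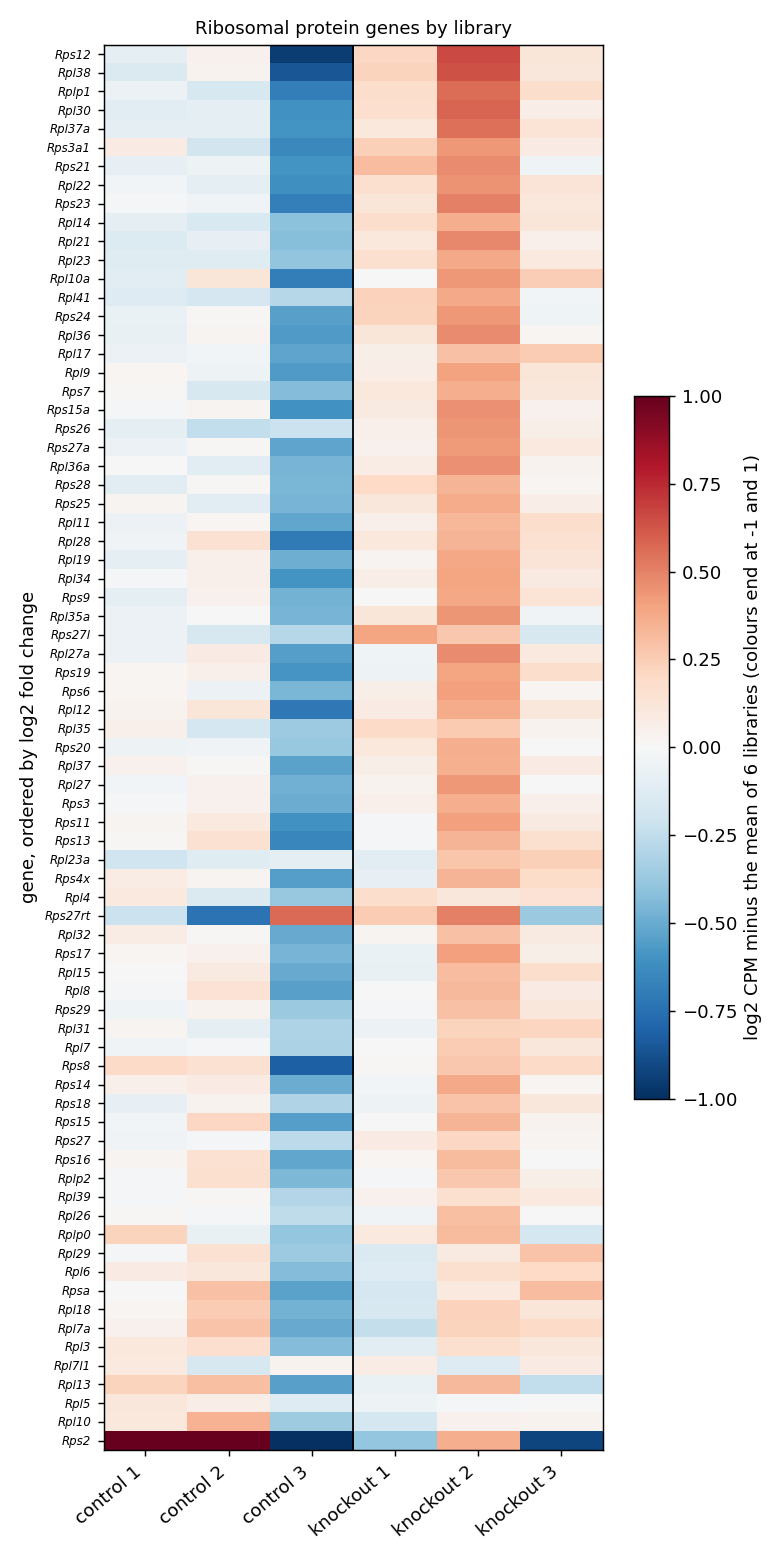
Each row is 1 of 75 members with a mean of at least 20 CPM, ordered by log2 fold change, each column is a library, and colour gives log2 CPM minus the mean of the 6 libraries, with red above and blue below. The control 3 column is blue for nearly all genes and the knockout 2 column red, the other columns are pale, and Rps2 in the last row has its own pattern.

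Without both shallow libraries the fit across 16816 genes gave a median of 0.07 for the members, beside 0.01 for all genes. Of the members, 59 were above 0 and 25 below. At an unadjusted p under 0.05, 0 members were higher and 2 were lower (Rps2 and Rpl13), where 2.91% and 4.08% of all genes were higher and lower. Rps2 was also called, as described below. Thus none of the 20 members higher at an unadjusted p under 0.05 in all 6 libraries stayed there in the 4 deep ones.

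**Figure D4:**
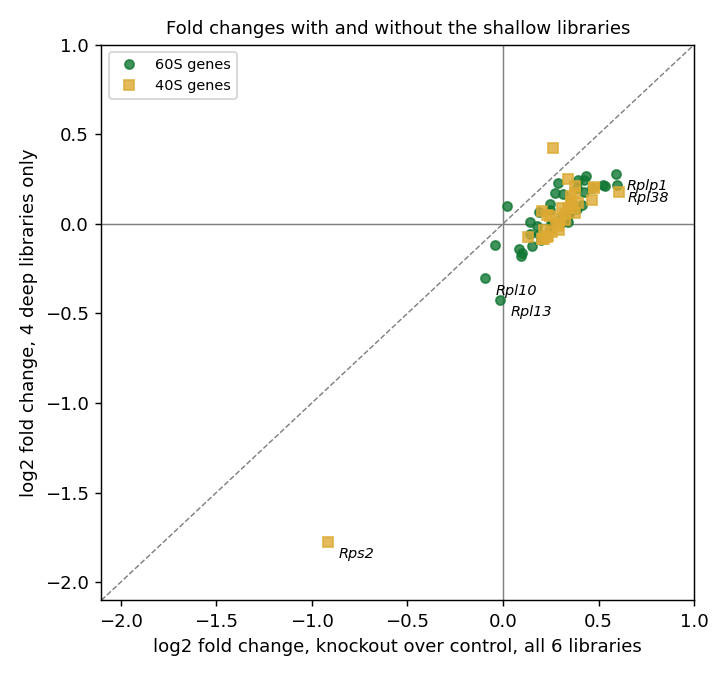
Each point is 1 of the 77 members with a mean of at least 20 CPM, with the log2 fold change of knockout over control in all 6 libraries on the horizontal axis and in the 4 deep libraries on the vertical axis, circles for 60S and squares for 40S genes. The median falls from 0.31 to 0.07 between the axes, most points lie under the dashed line of equal values, and Rps2 (-0.92 and -1.77) stands apart.

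Among the proteins of the 60S subunit, the stalk that recruits the elongation factors held the member with the smallest p. Rplp1, 1 of the acidic proteins of the stalk, was at 433, 404 and 279.7 CPM (controls 1 to 3) against 509, 664 and 509.6 CPM (knockouts 1 to 3). All 3 knockouts exceeded all 3 controls, with knockout 2 highest and control 3 lowest. The log2 fold change was 0.59 (SE 0.18, edgeR adjusted p = 0.649), and 0.28 in the deep libraries. Its partner Rplp2 had a smaller value of 0.19 (SE 0.17), at 305, 346 and 226 CPM (controls 1 to 3) against 306, 373 and 323 CPM (knockouts 1 to 3). Rplp0, the protein that anchors both to the ribosomal RNA, was at 0.15 (SE 0.17), and its groups overlapped. Rpl12, at the base of the stalk, was at 0.32. The 4 stalk genes had a median of 0.26 in all libraries and -0.02 in the deep ones.

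Rpl14, whose start is shown above, was at 525, 506 and 422 CPM (controls 1 to 3) against 634, 721 and 611 CPM (knockouts 1 to 3). The groups did not overlap, and each deep knockout was above each deep control by more than the gap between the deep controls. Its fold change on the log2 scale was 0.43 (SE 0.14, edgeR adjusted p = 0.823), and 0.26 in the deep libraries. Rpl38, a small protein known in mice for its part in translating Hox mRNAs during patterning of the skeleton, was at 82.3, 93.2 and 50.3 CPM (controls 1 to 3) against 106, 142 and 98.4 CPM (knockouts 1 to 3). The knockouts were again all above the controls. This gave a log2 fold change of 0.60 (SE 0.22; by edgeR, adjusted p = 0.999). Rpl37a, a zinc-binding protein, was at 256, 255 and 182 CPM (controls 1 to 3) against 294, 402 and 302 CPM (knockouts 1 to 3), and differed by 0.52 on the log2 scale (SE 0.18). Rpl30, which in yeast represses splicing of its own transcript, was at 110.4, 112 and 78.6 CPM (controls 1 to 3) against 134, 179 and 125 CPM (knockouts 1 to 3), with 0.53 (SE 0.19). In both, knockout 2 stood well above the other knockouts, which lay close to each other. For Rpl23 the log2 value was 0.42 (SE 0.15) and for Rpl21 it was 0.43 (SE 0.17), also with no overlap between groups. None of these passed the adjusted threshold.

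The proteins that bind 5S ribosomal RNA had unlike values, and the difference between them was not tested. Rpl11, which with Rpl5 binds and inhibits the p53 ligase MDM2 when assembly fails, was at 229, 241 and 167 CPM (controls 1 to 3) against 248, 301 and 269 CPM (knockouts 1 to 3), with no overlap. Its log2 fold change was 0.36 (SE 0.17). Rpl5 was at 234, 227 and 197 CPM (controls 1 to 3) against 209, 214 and 217 CPM (knockouts 1 to 3), with overlapping groups and a log2 fold change of -0.04 (SE 0.15). Near the peptidyl transferase centre, Rpl3 was at 0.09 (SE 0.16), Rpl8 at 0.25 (SE 0.18) and Rpl10, which joins late and completes the subunit, at -0.09 (SE 0.17). Rpl10 was at 492, 582 and 358 CPM (controls 1 to 3) against 404, 470.4 and 469 CPM (knockouts 1 to 3). Controls 1 and 2 were the highest libraries for this gene, so that in the deep libraries its log2 fold change was -0.30 (SE 0.14, edgeR adjusted p = 0.745). It is among the members whose start has no pyrimidine run, as shown above. Along the tunnel through which the new chain leaves, Rpl4, Rpl17 and Rpl39 all had groups that did not overlap, at 0.27, 0.39 and 0.19. Every knockout lay above every control for 36.9% of all members and 6.59% of all genes. Rpl4 was at 840.0, 709.7 and 603 CPM (controls 1 to 3) against 886, 848 and 871 CPM (knockouts 1 to 3). At the tunnel's exit, 6 of 6 proteins tested were above 0, with a median of 0.30. Of all members tested, 75 of 84 were above 0, with the same median of 0.30, against 52.5% of all genes.

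In the 40S subunit, Rps12 had the highest log2 fold change of the members at 20 CPM or more, at 0.61 (SE 0.24, edgeR adjusted p = 0.999). It was at 154, 169 and 84.9 CPM (controls 1 to 3) against 189, 259 and 179 CPM (knockouts 1 to 3). Control 3 lay far below the other controls and knockout 2 far above the other knockouts, and the groups did not overlap. Rps3a1, a protein of the 40S platform, was at 665, 552 and 402 CPM (controls 1 to 3) against 741, 849 and 664 CPM (knockouts 1 to 3). Knockout 3 fell just under control 1, so the groups overlapped, with a log2 fold change of 0.48 (SE 0.18; by edgeR, adjusted p = 0.999). Rps23, which reaches into the decoding centre, had 0.47 (SE 0.18), and Rps15, whose tail lies near the same site, 0.21 (SE 0.20). Rps6, the substrate of the S6 kinases downstream of mTORC1, was at 371, 353 and 268 CPM (controls 1 to 3) against 383, 488 and 372 CPM (knockouts 1 to 3), with a log2 fold change of 0.32 (SE 0.17). Its groups did not overlap, but control 1 and knockout 3 were closer to each other than any pair within a group. Rps9 was at 0.34 (SE 0.15), at 1128, 1244 and 868 CPM (controls 1 to 3) against 1207, 1572 and 1328 CPM (knockouts 1 to 3).

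Where mRNA leaves the 40S subunit, Rps26, Rps28 and Rpsa were all above 0, from 0.13 to 0.37, as were 75 of all 84 members tested. Rps26, which contacts the mRNA upstream of the start codon, was at 147, 132 and 135 CPM (controls 1 to 3) against 162, 212 and 163 CPM (knockouts 1 to 3). Control 3 was not low for this gene, and knockout 2 was high. Rpsa, also known as the laminin receptor, was at 287, 352 and 197 CPM (controls 1 to 3) against 256, 307 and 354 CPM (knockouts 1 to 3), with wide overlap. Rps27a, made as a fusion with ubiquitin, had 0.37 (SE 0.17) with no overlap. Rps20, a site of ubiquitination on collided ribosomes, had 0.31 (SE 0.16), and Rps10, the other such protein listed, had counts too low to read, with at most 4.71 CPM. The 4 annotated pseudogenes named for Rps10 held 3201 reads over all libraries, against 112 for Rps10 itself. The part of shared sequence in its level was not tested.

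The remaining members at an unadjusted p under 0.05 were Rpl9, Rpl17, Rpl22, Rpl41, Rps7, Rps21, Rps24 and Rps25, with log2 fold changes between 0.36 and 0.47. Rpl41, the smallest protein of the ribosome, was at 220.2, 214 and 197 CPM (controls 1 to 3) against 282, 313 and 236 CPM (knockouts 1 to 3). Rps21, whose start carries a short pyrimidine run, was at 96.4, 98.4 and 67.6 CPM (controls 1 to 3) against 127, 142 and 99.0 CPM (knockouts 1 to 3). Rps25, which some viral mRNAs need for internal initiation, was at 446, 403 and 316 CPM (controls 1 to 3) against 472, 565 and 457 CPM (knockouts 1 to 3). In these 3 genes the groups did not overlap, and knockout 3 was the knockout nearest to the controls. Rps19, a gene mutated in human Diamond-Blackfan anaemia, was not among them, at 561, 572 and 368 CPM (controls 1 to 3) against 532, 727 and 623 CPM (knockouts 1 to 3). Its control 3 was far below the rest and knockout 1 lay below controls 1 and 2, with a log2 fold change of 0.33 (SE 0.18). The 4 members on the X chromosome, Rpl10, Rpl36a, Rpl39 and Rps4x, had a median of 0.23. In 2 of them every knockout lay above every control, which held for 36.9% of all members and 6.59% of all genes.

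Rps2 had the pattern furthest from the rest. This protein sits at the mRNA entry channel and is methylated by PRMT3. It was at 214, 258 and 42.4 CPM (controls 1 to 3) against 82.0, 138 and 56.5 CPM (knockouts 1 to 3), from 8132, 9609 and 54 reads in the controls and 2769, 531 and 1216 reads in the knockouts. Controls 1 and 2 were above every knockout, and control 3 was below every knockout. In all 6 libraries its log2 fold change was -0.92 (SE 0.79, edgeR adjusted p = 0.999). In the 4 deep libraries it was -1.77 (SE 0.20, edgeR adjusted p = 0.0121), 1 of 39 genes called there (0.232%). Limma voom on all 6 libraries gave -1.40 with an adjusted p of 0.267 (0.095% of all genes were called by it). The call therefore rests on leaving out both shallow libraries, and none of the fits run that kept either of them made it. Of the 50-base stretches of Rps2, 71.3% also occur in 71 other genes, so its reads can be divided by the counting. These 71 rows together held 768, 763 and 18 reads in the controls and 496, 92 and 255 in the knockouts. Their summed level was 20.2, 20.5 and 14.1 CPM for controls against 14.7, 23.9 and 11.9 CPM for knockouts. This level was below that of Rps2 in every library. Reads that the counting may have discarded would not show in these rows, and the part of shared sequence in the values of Rps2 was not tested. Rps3, the other protein of the entry channel, was at 801, 837 and 575 CPM (controls 1 to 3) against 841, 1042 and 839 CPM (knockouts 1 to 3), with 0.30 (SE 0.16) and no overlap.

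Rpl13 was the other member lower at an unadjusted p under 0.05 in the deep libraries. It was at 1031, 1087 and 604 CPM (controls 1 to 3) against 842, 1105 and 745 CPM (knockouts 1 to 3). Both deep knockouts lay below both deep controls, knockout 2 lay above all controls, and control 3 was the lowest library. The log2 fold change was -0.02 in all libraries and -0.42 in the deep ones (SE 0.13, edgeR adjusted p = 0.391). In all libraries only 9 members were below 0, and Rpl13 had the largest p of them. Beside Rps2, the 8 with the smallest p on the lower side were Rpl24, Rpl13a, Rpl39l, Rps10, Rpl10, Rps19bp1 and Rpl5, with log2 fold changes from -1.14 to -0.04. Their unadjusted edgeR p ran from 0.234 for Rpl24 to 0.815 for Rps19bp1. Of these, 5 had a mean under 20 CPM, where control 3 rests on few reads. Rpl24, for example, was at 0.920, 1.86 and 7.07 CPM (controls 1 to 3) against 2.04, 0.260 and 1.12 CPM (knockouts 1 to 3).

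Some relatives of the core genes were low or not detected. Rpl3l, the striated-muscle relative of Rpl3, had at most 5 reads in a library, and Rpl10l, expressed in the testis, had 1 read in all, in control 3. Rpl39l, which also functions in the male germ line, was at 0.552, 1.69 and 2.36 CPM (controls 1 to 3) against 1.36, 0 and 0.837 CPM (knockouts 1 to 3). Rpl36al was at 2.16, 1.16 and 0 CPM (controls 1 to 3) against 3.91, 1.56 and 1.44 CPM (knockouts 1 to 3). Both sit near the floor of the shallow libraries. Rpl36al shares 26.0% of its exonic bases with Gm49383 on the same strand. Gm49383 was at 0 reads in every library, and reads in shared exons may not have been counted for Rpl36al. Rpl7l1 was the relative with the highest level, at 225, 189 and 215 CPM (controls 1 to 3) against 222, 193 and 223 CPM (knockouts 1 to 3), with even libraries and a log2 fold change of 0.02 (SE 0.15). Rps27l, a p53 target, was at 36.6, 34.2 and 31.4 CPM (controls 1 to 3) against 50.2, 46.0 and 34.3 CPM (knockouts 1 to 3), and its broadly expressed partner Rps27 at 271, 275 and 232 CPM (controls 1 to 3) against 294, 320.0 and 283 CPM (knockouts 1 to 3). In Rps27 the groups did not overlap and in Rps27l knockout 3 lay among the controls. Rpl22l1 was at 0.07 (SE 0.32) where its partner Rpl22 was at 0.47 (SE 0.19), at 92.1, 87.9 and 61.3 CPM (controls 1 to 3) against 105, 128 and 103 CPM (knockouts 1 to 3). Relatives had a median of 0.07 over the 5 tested, and the 8 partners a median of 0.22. The difference between them was not tested.

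Both subunits had most genes above 0. Of 60S genes 44 of 50 were above 0 with a median of 0.29, and of 40S genes 31 of 33 with a median of 0.30. In the deep libraries the medians were 0.07 and 0.06. The summed 60S level was 12709 CPM ± 2375 (SD, n = 3) for controls against 15042 CPM ± 1551 for knockouts, and the summed 40S level was 9569 CPM ± 1879 against 11833 CPM ± 1533. The ratio of summed 60S to summed 40S level was 1.33, 1.31 and 1.35 in the controls and 1.29, 1.24 and 1.30 in the knockouts. Every control was above every knockout, and knockout 2 was lowest. The group values were 1.33 ± 0.0159 (SD, n = 3) and 1.27 ± 0.0335 (SD, n = 3). An exact permutation test of 3 against 3 libraries cannot go below p = 0.1, and none is given for this summed measure. The 14 genes with an oligopyrimidine start had a median log2 fold change of 0.32, and the 50 other tested members with a listed start had 0.30. The 36 tested members with no exon overlap and under 50% shared sequence had a median of 0.31, and the other 48 had 0.29. The difference between these medians was not tested, nor was the part of misassigned reads in them. Annotated pseudogenes named for the members, 291 rows, held 3.10%, 2.55% and 4.21% as many reads as the members in the controls and 4.59%, 3.41% and 2.92% in the knockouts. These shares pool all members, and the pseudogenes of Rps10 held more reads than Rps10 itself.

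The shifts of the shallow libraries differed between classes of transcript length. Among protein-coding genes that are not members, the median shift of control 3 against the other controls was -0.27 for transcripts under 500 bases, -0.41 from 500, -0.31 from 1000, -0.18 from 2000 and -0.05 from 4000 bases upward. Members in the first 3 of these classes were at -0.42, -0.50 and -0.52. For knockout 2, non-members went from 0.14 in the shortest class to -0.10 in the longest, and members in the first 3 classes were at 0.38, 0.30 and 0.24. Members were thus further out than other genes of like length in both libraries, in a direction that other short transcripts shared. The part of length and library quality in the members' fold changes was not tested. The shortest class of non-members held 52 genes. Within the 77 members at 20 CPM or more, log2 fold change and log2 length had a Pearson correlation of -0.20 and a Spearman correlation of -0.21 across genes, as a description. For the control 3 shift against log2 length they were -0.13 and -0.12, and for the knockout 2 shift -0.24 and -0.30. In control 3, longer members thus lay slightly lower, whereas the shift of non-members from 500 bases upward shrank with length.

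Other genes of the translation machinery were compared from lists. Of 24 non-member mRNAs of the TOP class, such as elongation factors and eIF3 subunits, 22 were above 0 with a median of 0.27, and 0.07 in the deep libraries. Eef1b2, a nucleotide exchange factor of elongation, was at 132, 135 and 106 CPM (controls 1 to 3) against 169, 213 and 158 CPM (knockouts 1 to 3), with no overlap and a log2 fold change of 0.53 (SE 0.17; by edgeR, adjusted p = 0.797). Fau, which encodes the 40S protein eS30, was at 349, 403 and 245 CPM for controls against 365, 490 and 419 CPM for knockouts, and Rack1 at 258, 335 and 230 CPM and 274, 337 and 314 CPM. Fau and Rack1 both had control 3 lowest and knockout 2 highest. Initiation factors outside this class had a median of 0.05 (31 genes), ribosome biogenesis factors 0.03 (66 genes), RNA polymerase I and its factors -0.07 (12 genes), ribosome quality control and ribophagy genes -0.01 (29 genes) and regulators of TOP mRNAs 0.01 (20 tested). Mitochondrial ribosomal proteins, which belong to the separate ribosome of mitochondria, had 0.08 over 77 tested. Their median shift in control 3 was -0.44, nearer to the -0.50 of the members than the -0.41 of the TOP mRNAs. In every 1 of these 7 lists 0 genes were called in either direction by edgeR, and at an unadjusted p under 0.05 the counts were 3 of 24 higher among TOP mRNAs, 3 of 29 in quality control, 1 of 66 in biogenesis and 0 elsewhere, where 2.34% of all genes were higher. On the lower side the count was 0 in each list, where 1.98% of all genes were lower.

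**Figure D5:**
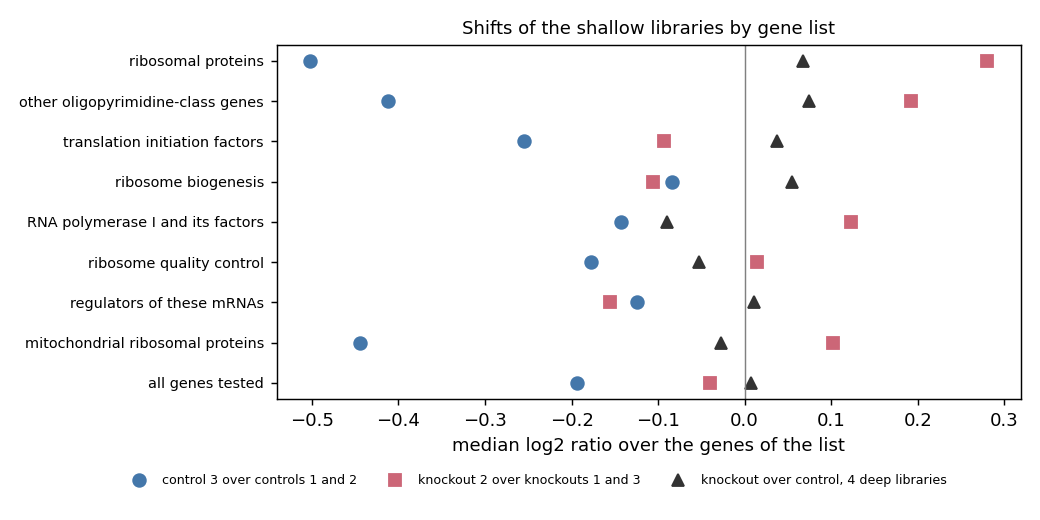
For each gene list on the vertical axis, symbols give the median log2 ratio of control 3 over the other controls (circles), of knockout 2 over the other knockouts (squares) and of knockout over control in the 4 deep libraries (triangles). Ribosomal proteins lie furthest out in both shallow libraries (-0.50 and 0.28), with the other TOP-class genes at -0.41 and 0.19 and the mitochondrial ribosomal proteins at -0.44 and 0.10, and the deep comparison lies between -0.09 and 0.07 for every list.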

How the data were processed

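The authors deposited whole-number read counts per gene, without normalization, for 6 libraries of sorted microglia. Per the labels' protocols, a SMARTer Ultra Low kit gave the cDNA, which was sonicated and amplified, with no molecular identifiers mentioned. The tools named in the submitters' processing notes are STAR, featureCounts of Subread, Salmon and bcl2fastq, and the build is GRCm39. Strand setting and the handling of reads that map to several genes are not given in the sources used here. Of 55774 rows, 287 repeated an identifier and were left out (5 members had such a repeat), and 0 rows named no gene. Total reads per library were 1254380 to 39389527.

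The test on these counts was that of edgeR 4.0.16 (R 4.3.3), with its default expression filter, TMM scaling, a robust quasi-likelihood F-test on group and Benjamini-Hochberg adjustment over all 15787 genes tested. Log2 fold changes are knockout over control, with their standard errors. Library ratios used log2 of CPM plus 0.5. Libraries were called shallow or deep by their total reads. Length, exon overlap and shared 50-base stretches came from GENCODE M21, an annotation of the assembly before GRCm39, and starts from RefSeq for GRCm38.p6. Length is that of the principal transcript. No libraries of a group agreed within sampling noise, with chi-square values of at least 39.4 per degree of freedom. The steps were tested on simulated data.

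Members, roles and gene lists were chosen with earlier results of these data known. Members named are any that were called, the 8 with the smallest p in each direction, the 4 with the highest CPM, a set fixed for roles, and those not tested. A few genes under this rule are not reported here by name and are not drawn. Rpl8, Rpl9, Rpl12, Rpl17, Rpl41, Rps7, Rps12, Rps15, Rps19, Rps21, Rps23, Rps24, Rps25 and Rps29 were named for their role or after their values were seen. Alternatives were DESeq2 1.42.0, limma 3.58.1 voom, other scalings and filters, protein-coding genes alone, no robust option, a replicate block, each library left out and both shallow libraries left out. Alternatives for the count of members at an unadjusted p under 0.05 were added after seeing the data.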

Additional observations from a re-analysis of the deposited data

How the results depend on the processing

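In all 17 alternatives 0 members were called higher, and 0 were called lower except without both shallow libraries, where 1 was (Rps2, log2 fold change -1.77). The median member stayed above 0 throughout, from 0.15 to 0.38 with 1 library left out, and at 0.17 with limma voom and 0.07 without both shallow libraries. The count at an unadjusted p under 0.05 on the higher side, 20 with all libraries, was 41 with library totals, 31 with a stricter filter, 31 with protein-coding genes alone, 12 with no filter, 8 with limma voom and 0 without both shallow libraries. It ran from 2 to 28 with 1 library left out, being 7 without control 3 and 2 without knockout 2. Voom also had 1 lower at that p, Rps2. DESeq2 gave 24 and its size factors 25. Library totals moved the median of all genes to 0.08 and that of the members to 0.35. With the replicate number as a block the count was 34, the median 0.31 and the smallest adjusted p 0.218. Libraries that share a number had correlated deviations of 0.30, -0.22 and -0.06, and control 3 with knockout 2 had 0.29. With 3 libraries per group these values cannot decide whether the numbers mark pairs. Of 676 values for 40 named members, 662 kept their side of the threshold, with the same sign or a sign change smaller than the SE. A further 13 changed sign by at least the SE, 1 passed the threshold and 0 changed sign while called. Where the sign held, size was not compared. For example, Rpl13 was at -0.02 in all 6 libraries and at -0.42 without both shallow ones. Genes near the floor of control 3 cannot be read at its depth.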

Other observations

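Among the protein-coding genes tested that are not members, log2 CPM was correlated with the summed level of the ribosomal protein genes over the 6 libraries. The highest were Gse1 (Pearson 0.998), Ccdc77 (0.994), Ndufaf3 (0.994), Frs2 (0.994), Nhs (0.993) and Rnf7 (0.993), given as a description. In control 3, Ccdc77 at 0.786 CPM and Nhs at 0 CPM lay under the floor of 3 reads. Rnf7, a subunit of cullin ubiquitin ligases, was at 134, 133 and 85.6 CPM for controls against 130.2, 161 and 133 CPM for knockouts, so control 3 was lowest and knockout 2 highest, as for the members.

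From the gene lists, 3 genes with groups that did not overlap are given, chosen after their values were seen. Of all genes, 6.59% had every knockout above every control and 4.47% the reverse, and none of the 3 was called by edgeR. Map3k20, the kinase ZAK that senses collided ribosomes, was at 3.76, 3.98 and 3.14 CPM for controls against 7.93, 6.23 and 8.51 CPM for knockouts, with a log2 fold change of 1.03 (SE 0.44). Ascc2, part of the complex that splits collided ribosomes, was at 29.5, 28.4 and 18.9 CPM and 39.9, 31.7 and 48.0 CPM, with 0.61 (SE 0.24). Ubtf, a factor of RNA polymerase I, was at 52.4, 52.3 and 50.3 CPM and 41.8, 41.6 and 37.5 CPM, with -0.36 (SE 0.18). In these 3 genes the deep libraries separated as the shallow ones did. For Map3k20, however, the 3.14 CPM of control 3 lies near that library's floor of 2.36 CPM. The edgeR adjusted p was 0.999 for each of the 3 genes.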
